A study of Homo sapiens with 6 samples.

Results

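The 10 genes described here encode the factors that switch on replication-dependent histone genes and cut the 3′ end of their transcripts. They were chosen by name, as SLBP, NPAT, CASP8AP2, LSM10, LSM11, ZNF473, ERI1, CPSF2, CPSF3 and SYMPK, and all 10 were found among the 39261 named probe sets, each with 1 probe set. The rule uses names alone, although it was set with earlier results of these data known. The cells were MIA-PaCa2, a permanent human cell line of pancreatic ductal adenocarcinoma (PDAC). Of the 6 arrays in 2 groups, 3 hybridised RNA of cells lipotransfected with siH19-2, an siRNA directed against the long noncoding RNA H19, and 3 hybridised RNA of cells lipotransfected with AllStars Negative Control siRNA (NC). Both groups therefore shared the cell line, the lipofection and the medium. The RNA was harvested at 24 h. The siRNA dose appears as 50 nM in the methods section and as 20 µg per siRNA in the labels, and which of them holds for the arrays is not known. Each probe set was measured as a log2 signal on a Clariom D array, on which a difference of 1 stands for a doubling. The question was how far these 10 genes differ between cells given the H19 siRNA and control cells.

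Replication-dependent histone transcripts are made in S phase, when new DNA must be packed, and are the only known animal mRNAs that end in a stem-loop and not in a poly(A) tail. Their genes sit in histone locus bodies, where NPAT, activated by cyclin E with CDK2, drives transcription. The stem-loop is bound by SLBP, the downstream element pairs with the U7 small nuclear RNA, and the U7 particle brings in the nuclease CPSF3, which cuts the transcript. SLBP then accompanies the mRNA to translation, and the exonuclease ERI1 takes part in its decay at the end of S phase.

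The 250 bases before the start site are shown for NPAT, which was the single member to pass the test below, for SLBP, which had the next smallest p, and for CASP8AP2, the partner of NPAT in the histone locus body. They are RefSeq sequences of build GRCh38.p14, printed 5′ to 3′ on the strand of the gene, and capitals mark the motifs searched on both strands, CCAAT and TTTGGCGC. The NPAT window is chr11:108222639-108222888 on the minus strand, that of SLBP chr4:1712320-1712569 on the minus strand and that of CASP8AP2 chr6:89829630-89829879 on the plus strand.
NPAT: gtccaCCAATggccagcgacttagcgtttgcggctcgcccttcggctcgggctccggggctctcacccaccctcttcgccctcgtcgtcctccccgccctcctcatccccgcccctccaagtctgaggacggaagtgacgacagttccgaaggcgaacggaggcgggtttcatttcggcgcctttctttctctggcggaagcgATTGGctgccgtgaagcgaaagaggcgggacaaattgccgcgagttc
SLBP: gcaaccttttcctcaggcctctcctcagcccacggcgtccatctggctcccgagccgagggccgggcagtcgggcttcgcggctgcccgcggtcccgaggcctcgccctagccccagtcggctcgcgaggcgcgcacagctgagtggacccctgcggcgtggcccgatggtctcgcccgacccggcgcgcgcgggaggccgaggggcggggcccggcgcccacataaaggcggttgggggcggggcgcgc
CASP8AP2: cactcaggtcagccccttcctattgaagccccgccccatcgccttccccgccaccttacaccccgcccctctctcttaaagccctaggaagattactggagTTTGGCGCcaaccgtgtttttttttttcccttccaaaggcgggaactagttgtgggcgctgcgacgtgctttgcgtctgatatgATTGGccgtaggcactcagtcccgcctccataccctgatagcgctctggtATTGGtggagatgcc
The NPAT window held CCAAT, the core letters bound by NF-Y, 245 bases before the start, and its reverse complement ATTGG 47 bases before the start. CASP8AP2 held TTTGGCGC, a form of the site of E2F factors, 149 bases before its start and ATTGG 65 and 15 bases before it, whereas the SLBP window held none of the letters searched and was the richest of the 3 in G and C, at 77.2% against 64% for NPAT and 56.8% for CASP8AP2. Promoters of 8 of the 10 genes were matched, those of ZNF473 and ERI1 being the exceptions. CCAAT or its reverse complement lay in 4 of these 8 windows (NPAT, CASP8AP2, LSM10 and CPSF2), against 32% of the 35116 windows of all genes. TTTGGCGC lay in those of CASP8AP2 and CPSF3, against 0.55% of all windows. The other E2F forms searched, TTTCCCGC and TTTCGCGC, lay in none of the 8, against 1.39% and 0.439% of all windows. A match is a description of letters and not of a bound site.

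Before the members, the targeted RNA was examined. H19 had log2 signals of 7.10, 7.09 and 7.12 on the siH19-2 arrays, against 7.36, 7.43 and 7.42 on the NC arrays. Its signal fell by 0.30 on the log2 scale (adjusted p = 0.0121, limma), which left 81.3% of the NC signal (95% confidence interval, 76.4% to 86.5%). Leaving out NC replicate 2, NC replicate 3, siH19-2 replicate 1 or siH19-2 replicate 2 raised the adjusted p to between 0.0534 and 0.0668. Of the keratins of the tumour line, KRT8 and KRT18 did not pass the test and KRT19 fell by 0.40. Of 22 markers of leukocytes, endothelial cells, fibroblasts and acinar or islet cells, 2 were lower in siH19-2, LYZ by 0.26 and COL1A2 by 0.19, and none was higher. With 1 array left out the adjusted p of these genes reached 0.0981 (LYZ), 0.125 (KRT19) and 0.132 (COL1A2). The summed linear signal of the leukocyte markers was 882 to 953 in siH19-2 and 879 to 933 in NC, and that of the fibroblast markers 1175 to 1199 in siH19-2 and 1295 to 1313 in NC. For endothelial markers it was 223 to 237 in siH19-2 and 220 to 223 in NC, and for acinar and islet markers 548 to 578 in siH19-2 and 534 to 560 in NC. Each such sum weighs its brightest probe sets most, so the sums are not measures of the cell types. The fibroblast sum mostly follows COL1A2, whose mean log2 signal in NC was 10.0, against 7.28 for COL1A1, the next brightest. The other 4 of the 5 fibroblast markers had fold changes above 0, and none of them passed. EPCAM, the epithelial adhesion molecule, lay below the median signal of all probe sets in both groups, at a mean log2 signal of 4.52 in siH19-2 and 4.52 in NC. Arrays correlated at 0.993 to 0.995 within a group and at 0.991 to 0.993 between groups. On principal component 2, siH19-2 replicate 3 stood apart from the other siH19-2 arrays (21.1 against -16.6 and -11.1). An effect of this siRNA on other transcripts and an effect through H19 cannot be told apart, because arrays of a single H19 siRNA were analysed.

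Of the 10 members, 1 was lower in siH19-2 at an adjusted p under 0.05 and none was higher (limma, Benjamini-Hochberg adjustment over all named probe sets). Over all named probe sets 5.26% passed, 2.63% being lower and 2.64% higher, so that 1 of 10 is close to that share. All 10 members were brighter than the median probe set, at percentiles 67.7 (LSM11) to 93.6 (CPSF3) of mean signal. When probe sets below the median signal were removed, 2 members and 4058 probe sets passed. The shares over all probe sets, here and below, include dimmer ones and are not matched to the members or lists in brightness. At an unadjusted p under 0.05, 2 members were lower and none was higher, against 8.25% lower and 12% higher over all probe sets. No member had a log2 fold change beyond 1 in either direction, a size that 0.0764% of all probe sets reached at an unadjusted p under 0.05. The groups did not overlap for 3 members that were lower and 4 that were higher, against 9.98% and 18.3% of all probe sets. The median log2 fold change was 0.0075 over the 10 members and 0.016 over all named probe sets, with 4 members below 0 and 6 above. In cultures of many cells, fewer cells of a kind and less RNA per cell cannot be told apart.

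NPAT and its partner in the histone locus body, CASP8AP2, are taken first. NPAT, the coactivator of histone gene transcription, had log2 signals of 8.39, 8.33 and 8.46 on the siH19-2 arrays, against 8.66, 8.60 and 8.70 on the NC arrays. The highest siH19-2 array lay 0.14 below the lowest NC array. The log2 signal of NPAT fell by 0.26 (standard error 0.049, adjusted p = 0.0427, limma), which left 83.5% of the NC signal with a 95% confidence interval from 76.8% to 90.8%. The exact permutation test gave p = 0.1 (two-sided), the smallest that 3 against 3 arrays allow. The call rested on all 6 arrays, since without any 1 of them the adjusted p was 0.0597 to 0.149 while the log2 fold change stayed between -0.29 and -0.23. It was also lost by a t-test with equal variances, at an adjusted p of 0.0702. CASP8AP2, also known as FLASH, binds LSM11 and recruits the cleavage machinery to histone transcripts. Its log2 signals were 8.57, 8.51 and 8.62 in siH19-2 and 8.52, 8.51 and 8.63 in NC, so that the groups overlapped. The log2 fold change was 0.012, with a 95% confidence interval from -0.11 to 0.14 (adjusted p = 0.924, limma), and its sign changed under cyclic loess scaling and without certain arrays. The intervals of NPAT (-0.38 to -0.14) and CASP8AP2 did not overlap.

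**Figure D1:**
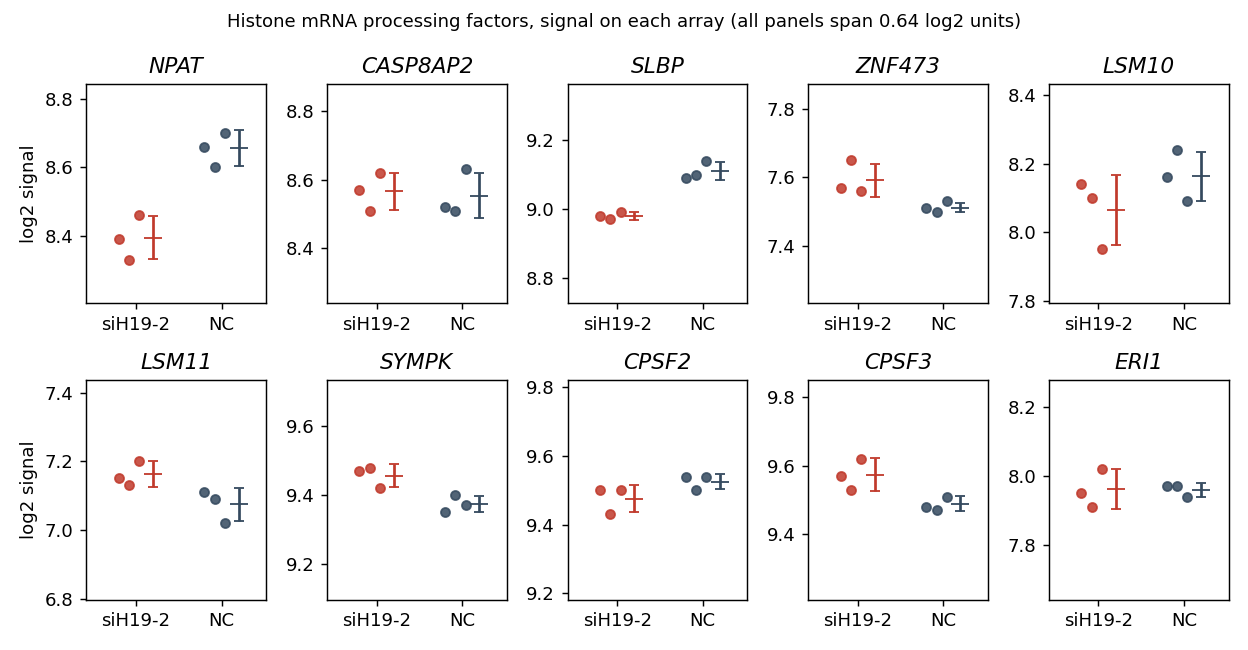
Log2 signal of each of the 10 factors on the 3 siH19-2 arrays (red, left) and the 3 NC arrays (blue, right), with dots for arrays and bars for the mean and SD. NPAT lies between 8.33 and 8.46 in siH19-2 and between 8.60 and 8.70 in NC, whereas the arrays of CASP8AP2, LSM10 and ERI1 overlap between the groups.

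The proteins that recognise the stem-loop come next. SLBP, the stem-loop binding protein, had log2 signals of 8.98, 8.97 and 8.99 in siH19-2 and 9.09, 9.10 and 9.14 in NC. Its spread was the smallest of the 10 members, with an SD within groups of 0.021 on the log2 scale, and the groups were 0.10 apart. The log2 fold change was -0.13 (standard error 0.033, unadjusted p = 0.00817 and adjusted p = 0.0947, limma), which left 91.4% of the NC signal with a 95% confidence interval from 86.3% to 96.7%. SLBP thus did not pass the test used here, but it did so with an intensity trend and robust prior (adjusted p = 0.0244), when probe sets below the median signal were removed (0.0237) and by the t-test with equal variances (0.0362). Without any 1 array its log2 fold change was -0.14 to -0.11 and its adjusted p 0.150 to 0.239. ZNF473, the zinc finger protein ZFP100, bridges the stem-loop complex and the U7 particle. It had 7.57, 7.65 and 7.56 in siH19-2 and 7.51, 7.50 and 7.53 in NC, and the groups were 0.031 apart. Its log2 fold change of 0.080 did not pass (adjusted p = 0.323, limma).

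LSM10 and LSM11 are the ring proteins that set the U7 particle apart from spliceosomal particles. LSM10 had log2 signals of 8.14, 8.10 and 7.95 in siH19-2 and 8.16, 8.24 and 8.09 in NC, with overlap of the groups and the largest spread of the 10 members (SD within groups 0.088). Its log2 fold change was -0.099 with a 95% confidence interval from -0.26 to 0.064 (adjusted p = 0.473, limma), and without siH19-2 replicate 3, its lowest array, it was -0.041. LSM11 had 7.15, 7.13 and 7.20 in siH19-2 and 7.11, 7.09 and 7.02 in NC. All siH19-2 arrays were above all NC arrays by a gap of 0.015, and the log2 fold change was 0.088 (adjusted p = 0.310, limma). Whether the fold changes of the ring partners differ was not tested, and their intervals overlapped, that of LSM11 being -0.014 to 0.19.

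None of the core cleavage factors passed the test. SYMPK, the scaffold symplekin, had log2 signals of 9.47, 9.48 and 9.42 in siH19-2 and 9.35, 9.40 and 9.37 in NC, a log2 fold change of 0.083 (adjusted p = 0.273, limma). CPSF3, the endonuclease CPSF73 that cuts both histone and polyadenylated transcripts, had 9.57, 9.53 and 9.62 in siH19-2 and 9.48, 9.47 and 9.51 in NC, a log2 fold change of 0.085 (adjusted p = 0.300, limma). In both genes every siH19-2 array was above every NC array, by gaps of 0.020 and 0.016. CPSF2, the partner of CPSF3 known as CPSF100, had 9.50, 9.43 and 9.50 in siH19-2 and 9.54, 9.50 and 9.54 in NC. Its groups touched, with a gap of 0.0020, and the log2 fold change was -0.050 (adjusted p = 0.520, limma), or -0.027 without siH19-2 replicate 2, its lowest array. ERI1, the exonuclease that trims and degrades the histone 3′ end, had 7.95, 7.91 and 8.02 in siH19-2 and 7.97, 7.97 and 7.94 in NC. Its groups overlapped, the log2 fold change was 0.0031 with a 95% confidence interval from -0.099 to 0.11 (adjusted p = 0.978, limma), and its sign changed under cyclic loess scaling and without certain arrays.

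**Figure D2:**
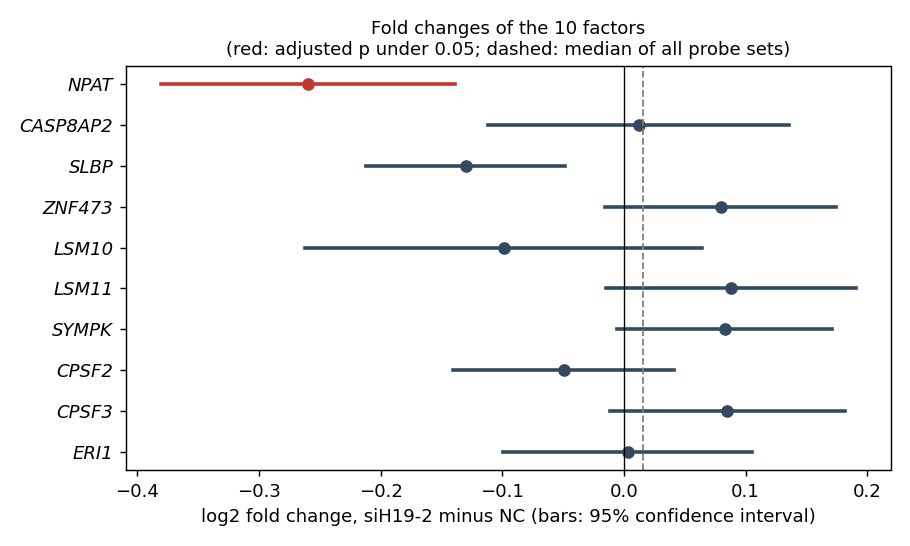
Log2 fold change (siH19-2 minus NC) of the 10 factors, with bars for the 95% confidence interval and a dashed line for the median of all named probe sets (0.016). NPAT (red) was the single member at an adjusted p under 0.05, and the intervals of NPAT and SLBP were the ones that lay wholly below 0.

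Over the 9 members that did not pass, the log2 fold changes lay between -0.13 and 0.088 and the adjusted p between 0.0947 and 0.978. Taken over these 9, the 95% confidence intervals reached at most from 83.4% (LSM10) to 114% (LSM11) of the NC signal, so that a halving or doubling of the signal lay outside every interval. The median SD within groups was 0.040 on the log2 scale over the 10 members and 0.074 over all named probe sets. The median over the members of the deviation from the NC mean was 0.0066, -0.048 and 0.045 on siH19-2 replicates 1, 2 and 3, and -0.0029, -0.013 and 0.013 on the NC replicates.

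The array pattern most like that of NPAT was sought over all other named probe sets. METTL2B had the highest Pearson r with NPAT over the 6 arrays (0.998), followed by FNDC3A (0.997) and SKIL (0.997). Of the 39260 other probe sets, 605 had an r above 0.95, which describes 6 arrays that also differ in group. ATM, which was chosen after its values were seen and lies head to head with NPAT in the reference annotation, had log2 signals of 7.46, 7.41 and 7.58 in siH19-2 and 7.31, 7.40 and 7.39 in NC, with a log2 fold change of 0.12 (adjusted p = 0.322, limma). The neighbours thus had fold changes of opposite sign, of which that of NPAT passed.

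Around the members, 76 further genes were examined in 6 lists, of which 4 cover histone mRNA metabolism and the others cover polyadenylation factors and the Integrator complex, and 4 genes were lower and 3 higher at an adjusted p under 0.05 (9.21% against 5.26% of all probe sets), among them 1 lower and 1 higher subunit of Integrator. Among 12 genes of histone gene transcription and the histone locus body, 2 were lower, 1 was higher and 9 did not pass, with a median log2 fold change of 0.042. At an unadjusted p under 0.05, 4 of the 12 were lower and 3 higher (limma), against 8.25% and 12% of all probe sets. Those lower by adjusted p were the E-type cyclins, which activate CDK2 towards NPAT. CCNE1 had log2 signals of 8.51, 8.53 and 8.63 in siH19-2 and 9.01, 9.00 and 9.02 in NC, a fall by 0.46 (standard error 0.044, adjusted p = 0.00574, limma). CCNE2 had 7.71, 7.71 and 7.72 in siH19-2 and 8.04, 8.00 and 8.08 in NC, a fall by 0.33 (adjusted p = 0.00871, limma). Neither gene overlapped between the groups, and CCNE1 passed without any 1 array, whereas CCNE2 passed in 5 of 6 such fits and had an adjusted p of 0.0551 without NC replicate 1. COIL, the coilin of Cajal bodies, was higher, at 9.33, 9.23 and 9.27 in siH19-2 and 9.00, 8.99 and 9.07 in NC (log2 fold change 0.26, adjusted p = 0.0327, limma, and 0.0691 to 0.131 without any 1 array). CDK2 and E2F3 were singled out after their values were seen. CDK2 had a log2 fold change of 0.15 (adjusted p = 0.0889, limma) and E2F3 of -0.27 (adjusted p = 0.0515, limma).

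**Figure D3:**
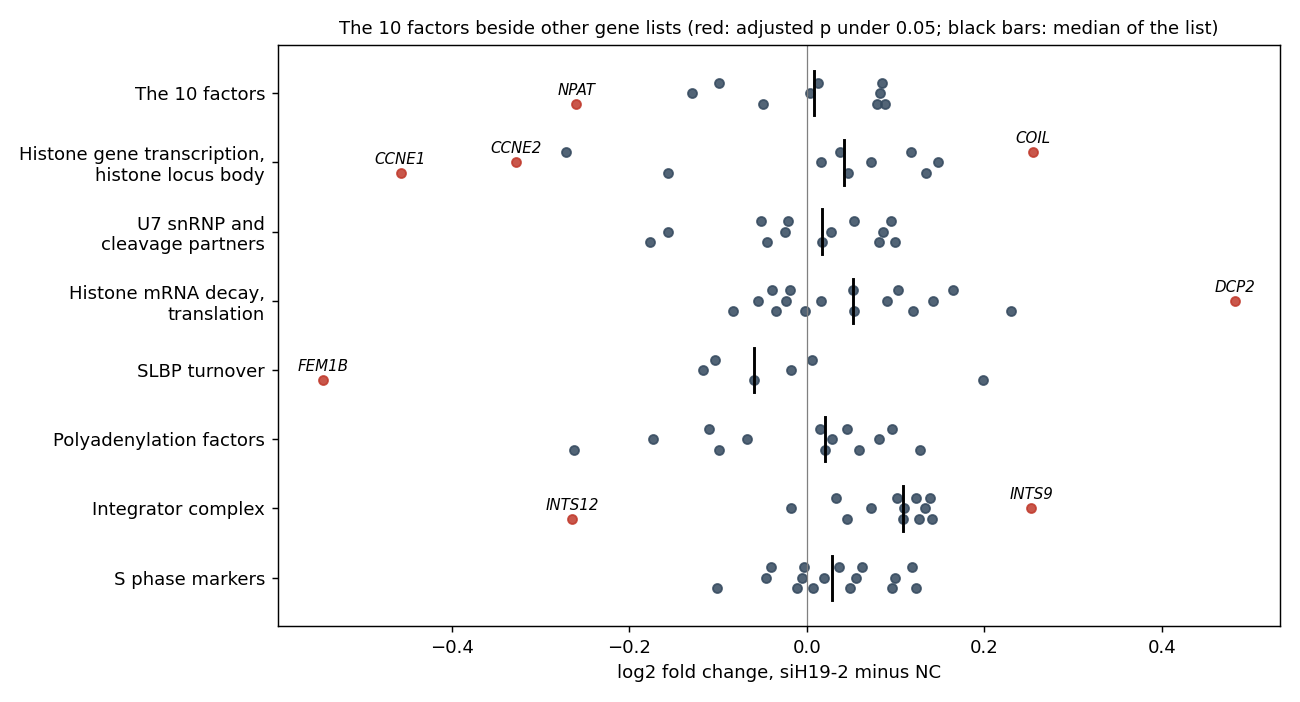
Log2 fold change (siH19-2 minus NC) of the 10 factors and of 7 other gene lists, with 1 dot per gene, red for an adjusted p under 0.05 and a black bar for the median of each list. The genes in red are NPAT, CCNE1, CCNE2, FEM1B and INTS12 to the left of 0, and COIL, DCP2 and INTS9 to the right.

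Partners in cleavage showed no call. Of 13 further components of the U7 particle, the cap-binding complex and the cleavage machinery, 2 were lower and 1 higher at an unadjusted p under 0.05 (limma). The shares of all probe sets at this threshold were 8.25% and 12%. None of the 13 passed at an adjusted p under 0.05 (limma). The count was also 0 by the t-test with equal variances and 1 with an intensity trend and robust prior. CSTF2, the cleavage partner CstF64, was singled out after its values were seen and had log2 signals of 9.31, 9.22 and 9.24 in siH19-2 and 9.44, 9.42 and 9.44 in NC (log2 fold change -0.18, adjusted p = 0.0637, limma). The U7 RNA gene itself, RNU7-1, had no probe set under that name in the table used here. Of 21 probe sets of U7 pseudogenes, a list added after the names in the table were seen, 1 (RNU7-26P) was lower and none higher, the count being 0 to 1 with 1 array left out, and such copies may share probes.

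DCP2 and FEM1B, in the lists of decay and turnover, had larger absolute log2 fold changes than any of the 10 members. Of 17 genes of histone mRNA decay and translation, 1 was higher, none was lower and 16 did not pass. At an unadjusted p under 0.05, 5 of the 17 were higher and none was lower (limma), against 12% and 8.25% of all probe sets. The one that passed was DCP2, the decapping enzyme, with log2 signals of 8.08, 8.15 and 8.07 in siH19-2 and 7.61, 7.61 and 7.63 in NC. It rose by 0.48 (standard error 0.037, adjusted p = 0.00326, limma). Of 7 genes of SLBP turnover, 1 was lower and 6 did not pass. By unadjusted p under 0.05, 2 of the 7 were lower and 1 higher (limma), against 8.25% and 12% of all probe sets. FEM1B, a substrate receptor of cullin ubiquitin ligases that has SLBP among its substrates, had 8.39, 8.35 and 8.49 in siH19-2 and 8.97, 8.97 and 8.93 in NC. It fell by 0.55 (standard error 0.046, adjusted p = 0.00441, limma), to 68.5% of the NC signal. DCP2 and FEM1B passed without any 1 array, at adjusted p of up to 0.0313 and 0.0357.

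**Figure D4:**
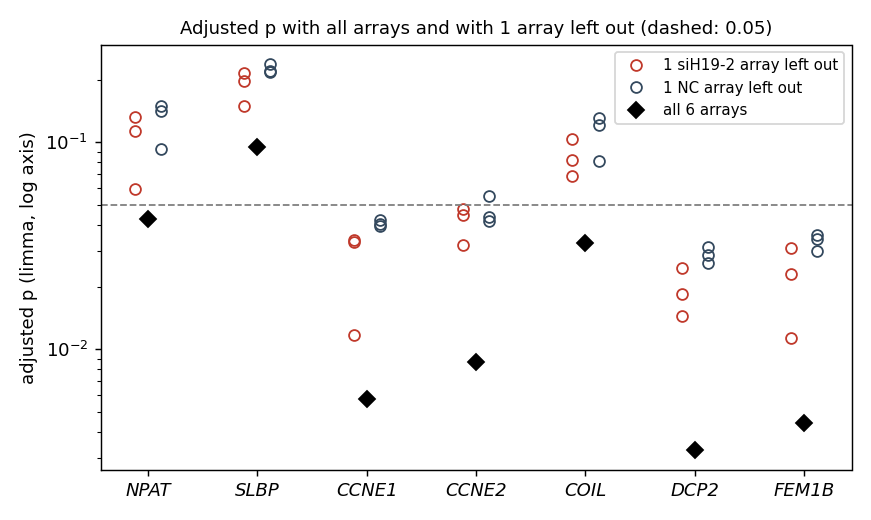
Adjusted p (limma, log axis) of NPAT, SLBP and 5 other genes of histone mRNA metabolism with all 6 arrays (diamonds) and with 1 siH19-2 array (red, left) or 1 NC array (blue, right) left out, with a dashed line at 0.05. All open circles of NPAT, SLBP and COIL lie above the line, and all those of CCNE1, DCP2 and FEM1B below it.

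The machinery of ordinary transcripts was set beside the members. Of 13 polyadenylation factors none passed at an adjusted p under 0.05 (limma), with a median log2 fold change of 0.021. By unadjusted p under 0.05, 3 of the 13 factors were lower and 2 higher (limma), against 8.25% and 12% of all probe sets. By the t-test with equal variances 1 of them passed, and 2 with the trend and robust prior. Of 14 subunits of Integrator, which cuts small nuclear RNAs with a nuclease related to CPSF3, 1 was lower (INTS12, by 0.26), 1 was higher (INTS9, log2 fold change 0.25) and 12 did not pass. With 1 array left out the adjusted p of INTS12 was 0.0562 to 0.101 and that of INTS9 0.0489 to 0.0912. The median of this list was 0.11, with 12 of 14 subunits above 0. At an unadjusted p under 0.05, 7 subunits were higher and 1 was lower (limma), against 12% and 8.25% of all probe sets. None of 16 S phase markers passed at an adjusted p under 0.05 (limma), and their median was 0.028. By unadjusted p under 0.05, 1 of the 16 was lower and 3 were higher (limma), against 8.25% and 12% of all probe sets. The t-test with equal variances called 2 of these markers and the trend and robust prior 3. Of the substrates, 35 of 63 histone genes taken as replication-dependent by their symbols were lower and none was higher (median log2 fold change -0.38). Of the 10 processing factors 1 was lower, and of all probe sets 2.63%. Whether copies of histone genes share probes was not examined. With 1 array left out, 7 to 24 of the 63 and 0 of the 10 passed. The t-test with equal variances called 22 of the 63, and the trend and robust prior 42. With Bonferroni-Holm the count of these histone genes was 0, as it was with the replicate number as a block. The spread of those histone fold changes was -0.81 (HIST1H2AD) to 0.32 (HIST1H4J), with 62 of the 63 below 0. Both end genes were dim, at percentiles 3.23 and 0.762 of mean signal. Neither passed (adjusted p = 0.227 and 0.416, limma). Of 10 replication-independent histone genes, most of which give polyadenylated transcripts, 1 was higher (H2AFY2, log2 fold change 0.18, adjusted p of 0.0888 to 0.151 with 1 array left out) and none was lower (median -0.035). At an unadjusted p under 0.05, 3 of these genes were lower and 2 higher (limma), against 8.25% and 12% of all probe sets. By adjusted p, 5 passed with the trend and robust prior and 0 under cyclic loess.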

How the data were processed

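Gene expression was measured on 3 Clariom D arrays of siH19-2-transfected and 3 of NC-transfected MIA-PaCa2 cells, grouped by the sample labels. The authors normalized the arrays against each other and deposited a log2 signal per gene and array. Their methods name limma for this step. How the background was corrected and which annotation was used is not given in the sources used here. Names came from a second deposited table, which also holds group means of the log2 signals and the authors' own differences, test statistics and p-values, not used here. Group means of both files differed by at most 5e-09.

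For each probe set, a linear model of the group was fitted with limma 3.58.1 under R 4.3.3 and moderated by eBayes, with 1.92 prior beside 4 residual degrees of freedom. Tests were two-sided, and p-values were adjusted after Benjamini-Hochberg for the 39261 named probe sets of 39334 and no filter on dim ones. The fit was tested on simulated data. The number of arrays limits the precision. The paper speaks of independent experiments for its quantitative data in general and of triplicate hybridization for the arrays. Whether the arrays came from separate cultures is not stated, and if they did not, the p-values measure only technical spread. Signals of different probe sets are not compared as amounts of RNA. Where they are summed or ranked, this describes brightness on the array alone. The members and lists were chosen with earlier results of these data known. Named genes are all members, H19, up to 4 genes of each other list with an adjusted p under 0.05, and the 3 probe sets most correlated with the member of smallest p. Named outside this rule are ATM, CDK2, E2F3 and CSTF2, singled out after their values were seen. So are the tumour line markers KRT8, KRT18 and EPCAM, and the histone genes at either end of the range of fold changes. TUT4 and TUT7 were found as ZCCHC11 and ZCCHC6. RNU7-1 and H3F3A had no probe set under these names. Alternatives were other scalings, a filter, another prior, other tests and thresholds, a replicate block, all probe sets, and each array left out. The array's genome build is not stated, so coordinates are those of the RefSeq promoter windows. A gene of the list of tumour line markers is not reported here.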

Additional observations from a re-analysis of the deposited data

How the results depend on the processing

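The count of members at an adjusted p under 0.05, 1 with all arrays, was 2 (NPAT and SLBP) when probe sets below the median signal were removed, with an intensity trend and robust prior, and at an unadjusted p. It was 0 with Bonferroni-Holm, 0 at an unadjusted p with an absolute log2 fold change above 1, and 0 when any 1 array was left out. By the t-test with equal variances the count stayed at 1, but the gene was SLBP. Over all probe sets the count of 2067 became 4058 among the brighter ones, 3449 with the trend and robust prior, 43 with Bonferroni-Holm, 7963 at an unadjusted p, 30 at an unadjusted p with an absolute log2 fold change above 1, and 464 to 1078 with 1 array left out. Cyclic loess moved the split of all calls to 1131 lower and 783 higher, against 1032 and 1035, and the median of all probe sets to -0.0019.

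With the replicate number as a block, 0 members and 74 probe sets passed. CCNE1, DCP2 and FEM1B lost their calls with the block, as they did with Bonferroni-Holm and with the fold change threshold. The block cost residual degrees of freedom, and the numbers did not pair the arrays, as the deviations of same-numbered arrays correlated at 0.0052 to 0.0099 and 0 of 3 siH19-2 arrays correlated best with its own number. With all 6 arrays, H19 lost its call under Bonferroni-Holm, the block (adjusted p = 0.0906, limma) and the fold change threshold, at a log2 fold change of -0.30. With 1 array left out its log2 fold change was -0.32 to -0.28, and the call was kept in 2 of 6 fits.

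The median log2 fold change of the members was -0.021 to 0.035 with 1 array left out. CASP8AP2 and ERI1 changed sign, at -0.0053 and -0.013 under cyclic loess and at -0.014 to 0.050 and -0.027 to 0.029 with 1 array left out. The other 8 members kept their direction under every alternative run.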
